A study of Mus musculus with 15 samples.

Results

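The Hox cluster genes were described across naïve brain and 4 syngeneic mouse brain tumors. The members were chosen by name alone: every protein-coding gene of the files whose GENCODE symbol is Hox, a cluster letter from a to d and a number, which gave 39 of 46679 genes. There were 11 members in the Hoxa cluster on chromosome 6, 10 in Hoxb on chromosome 11, 9 in Hoxc on chromosome 15 and 9 in Hoxd on chromosome 2 (GRCm38). RNA was sequenced from whole tissue of 15 C57BL/6 mice, with 3 mice in each of the 5 groups, and was deposited as estimated counts and as TPM, a transcript level scaled to gene length and to the library. Mice were 6 to 8 weeks old at implantation, were given an intracranial implant of 500000 Mut3 cells or of 100000 cells of another line, and were perfused with 30 ml of PBS at end-stage before the tumor was taken. CT2A (wild type for p53) and GL261 (mutant in K-ras and p53) were induced with methylcholanthrene and had been grown in serum. The line 005 came from a tumor raised by activated H-ras and AKT in mice lacking 1 p53 allele, and Mut3 from a tumor with NF1 and p53 inactivated. Both had been grown in neurobasal medium with EGF and FGF-2. The tumor lines carried GFP and firefly luciferase from a retrovirus, each is a single established line, and the naïve brains received no cells. Tumor tissue holds host cells beside the tumor cells, so in these bulk samples fewer cells of a type and less RNA per cell cannot be told apart.

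Hox genes encode homeodomain transcription factors that give cells their position along the head-to-tail axis of the embryo. Within a cluster the genes lie in the order in which they are used: those with low paralog numbers act toward the head, up to the hindbrain, and those with high numbers toward the tail and the ends of the limbs. The forebrain and midbrain form without Hox genes. Retinoic acid and Cdx factors open the clusters in the embryo, Polycomb complexes keep them silent, complexes of the MLL (trithorax) family keep them active, and Pbx and Meis proteins bind DNA together with Hox proteins.

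Naïve brain held almost no Hox RNA, and the tumors differed in how much of it they held and in which members led. The summed level of the 39 members was 0.357, 1.92 and 0.929 TPM in the 3 naïve brains and 20.2, 27.3 and 21 TPM in CT2A. It was 5.27, 3.2 and 4.8 TPM in GL261, 28.6, 19.3 and 4.24 TPM in 005, and 9.68, 11.9 and 5.85 TPM in Mut3. The lowest tumor was above the highest naïve brain, and CT2A lay above GL261 and Mut3. In TPM the 3 samples of 005 ran from within the values of GL261 to above those of CT2A. Scaled to library size but not to gene length (CPM), the 005 samples were at 98.8, 75.1 and 13.2. They then ran from below GL261 (20.4 to 39.4 CPM) to within CT2A (90.8 to 140 CPM). In counts, the naïve brains held 9, 22 and 17 Hox counts each, against 130 to 1014 in the tumors, with no member above 6 counts in a naïve brain. The number of members with at least 3 counts in each of the 3 mice of a group was 13 in CT2A, 10 in Mut3, 9 in 005, 6 in GL261 and 0 in naïve brain. Only 4 members reached a mean of 1 TPM in any group (Hoxa5, Hoxa7, Hoxa10 and Hoxc10), and 19 stayed under 0.1 TPM in the mean of every group.

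**Figure D1:**
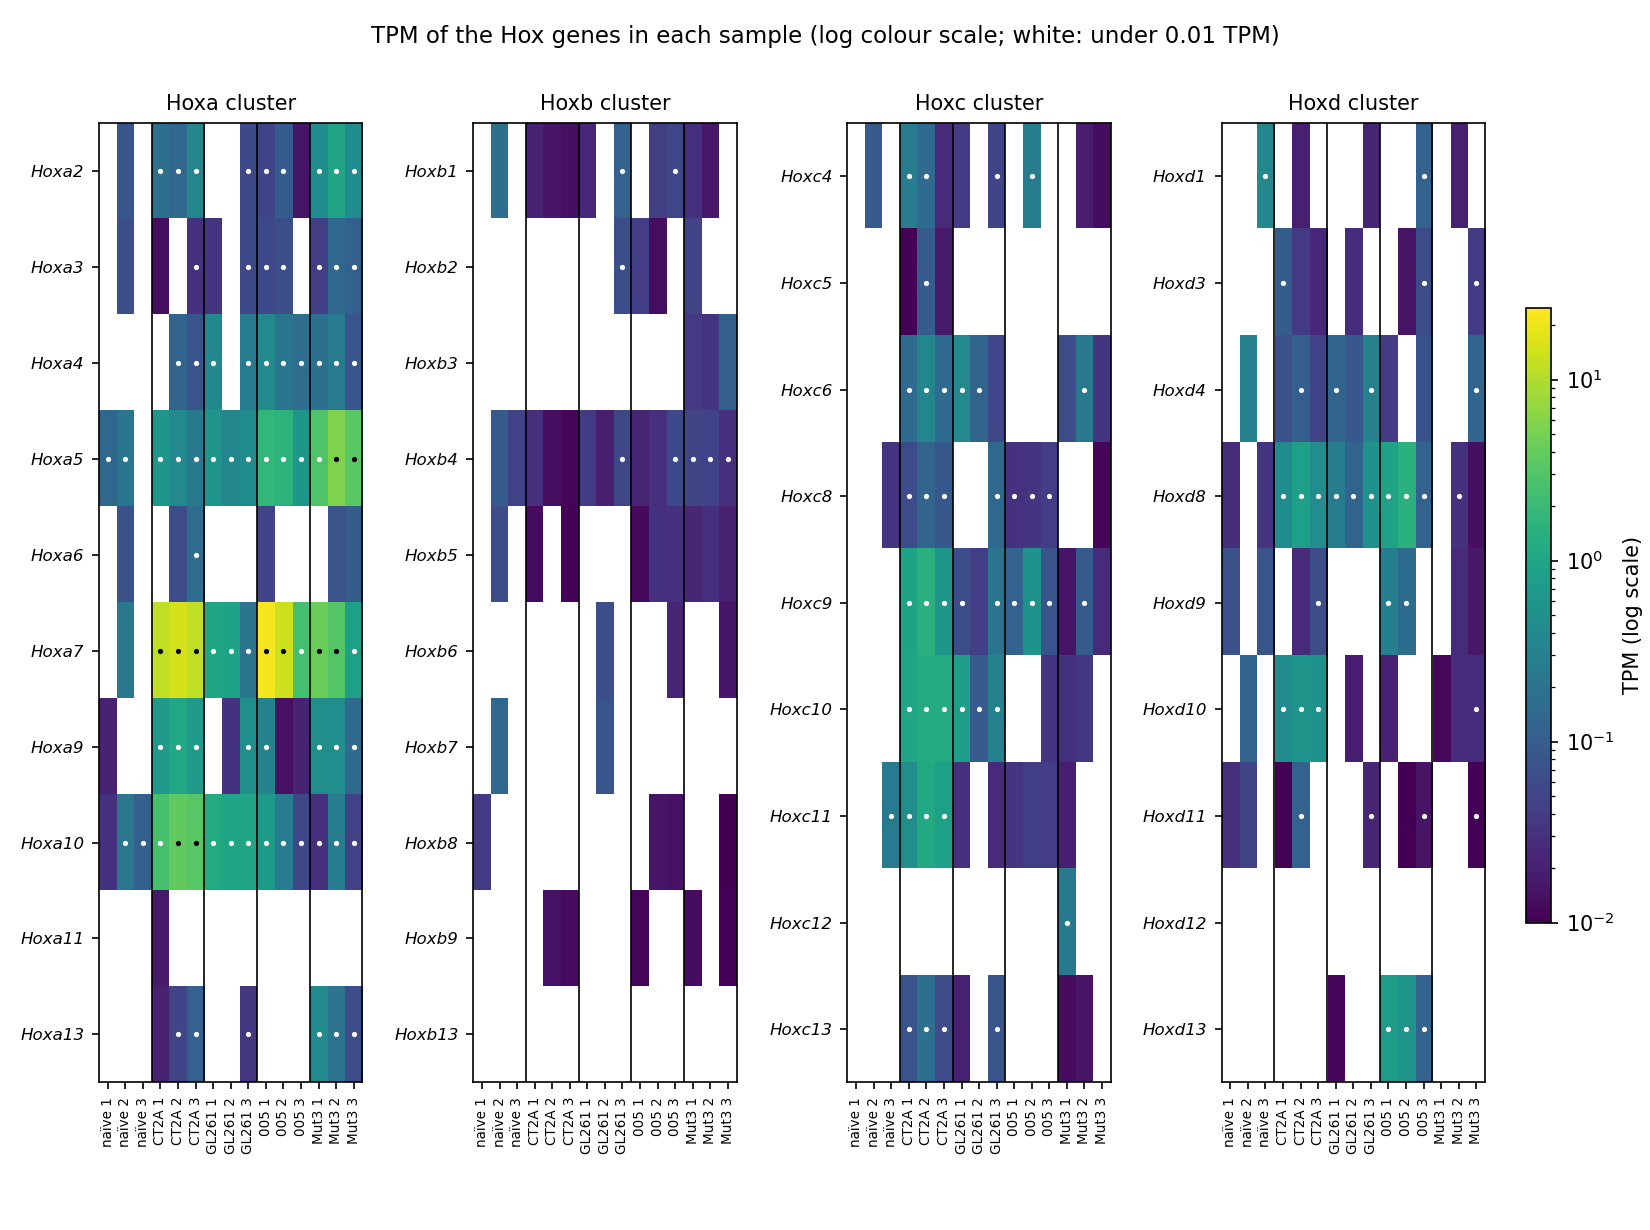
TPM of the Hox genes (rows, by paralog number within the 4 clusters) in each sample (columns, 3 mice per group), on a log colour scale with values under 0.01 TPM in white; a dot marks at least 3 counts. The Hoxb panel holds few dots and no value above 0.179 TPM, CT2A has dots in all 3 samples at Hoxa10, Hoxc8 to Hoxc11, Hoxc13, Hoxd8 and Hoxd10 among others, and Mut3 has them mainly in Hoxa.

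The promoters of 5 members are shown as examples of members that were highest in different tumors: by mean TPM, Hoxa5 was highest in Mut3, Hoxa7 in CT2A and 005, Hoxa10 in CT2A, followed by GL261, and Hoxd8 and Hoxd13 in 005. Each line gives the 250 bases before a RefSeq transcription start (GRCm38.p6), read 5′ to 3′ on the gene's strand, with matches to the searched motifs in capitals on either strand.
Hoxa5, chr6:52204588-52204837, minus strand: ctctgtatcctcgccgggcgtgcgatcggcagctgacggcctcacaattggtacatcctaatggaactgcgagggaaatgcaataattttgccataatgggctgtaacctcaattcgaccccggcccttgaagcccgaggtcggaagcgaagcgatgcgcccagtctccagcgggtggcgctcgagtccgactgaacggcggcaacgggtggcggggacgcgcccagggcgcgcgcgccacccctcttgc
Hoxa7, chr6:52218574-52218823, minus strand: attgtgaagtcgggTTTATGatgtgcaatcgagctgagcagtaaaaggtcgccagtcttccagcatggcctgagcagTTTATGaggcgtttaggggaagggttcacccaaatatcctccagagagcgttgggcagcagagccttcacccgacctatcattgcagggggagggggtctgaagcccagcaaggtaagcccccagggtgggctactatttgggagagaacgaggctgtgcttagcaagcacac
Hoxa10, chr6:52234940-52235189, minus strand: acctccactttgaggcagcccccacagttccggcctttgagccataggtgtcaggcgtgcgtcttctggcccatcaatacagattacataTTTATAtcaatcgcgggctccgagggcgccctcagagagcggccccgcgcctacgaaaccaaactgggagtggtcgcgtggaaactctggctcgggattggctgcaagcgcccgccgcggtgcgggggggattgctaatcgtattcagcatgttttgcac
Hoxd8, chr2:74704365-74704614, plus strand: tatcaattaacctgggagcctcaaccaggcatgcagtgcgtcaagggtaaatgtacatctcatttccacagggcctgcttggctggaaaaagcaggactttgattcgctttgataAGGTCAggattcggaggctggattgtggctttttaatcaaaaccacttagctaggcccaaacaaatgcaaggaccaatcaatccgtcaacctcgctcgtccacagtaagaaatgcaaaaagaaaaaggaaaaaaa
Hoxd13, chr2:74667975-74668224, plus strand: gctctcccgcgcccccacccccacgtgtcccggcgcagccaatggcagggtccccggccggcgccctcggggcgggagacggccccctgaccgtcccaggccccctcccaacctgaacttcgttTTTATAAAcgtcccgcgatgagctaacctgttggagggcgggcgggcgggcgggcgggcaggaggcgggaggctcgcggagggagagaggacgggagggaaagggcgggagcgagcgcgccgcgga

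The motifs searched on both strands were the retinoic acid receptor half-site AGGTCA, the Hox-Pbx site TGATNNAT, the Meis site TGACAG, the Cdx site TTTATG and the TATA box TATAAA. The Cdx site read on its other strand shares the letters ATAAA with the TATA box, but no stretch of 6 bases can match both. The RefSeq table held 24 such windows for 22 of the members among 32851 windows of all genes. AGGTCA stood in 14% of all windows and in 25% of those of Hox genes, and the Hox-Pbx site in 7.68% and 16.7%. TTTATG stood in 10.8% and 20.8%, TGACAG in 15.9% and 8.33%, and TATAAA in 12.4% and 16.7%. With 24 windows these shares rest on 2 to 6 windows per motif, and a match is a description of letters, not a site in use. The 2 capitalized Cdx matches of Hoxa7 lie apart, whereas the 2 TATA box matches of Hoxd13 lie on opposite strands and overlap. The median window of a Hox gene was 58.6% G and C with 12.5 CpG dinucleotides, against 52.4% and 6 over all windows, and the window of Hoxa5 held 28. The Hoxa7 and Hoxa10 windows lie inside the gene as GENCODE draws it, since the GENCODE spans reach farther upstream, and a second RefSeq start of Hoxa10 is not shown.

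The filter on low counts kept 12 members: 7 of Hoxa (among them Hoxa2, Hoxa5, Hoxa7, Hoxa9, Hoxa10 and Hoxa13), 3 of Hoxc (Hoxc9, Hoxc10 and Hoxc11), 2 of Hoxd (Hoxd8 and Hoxd10) and 0 of Hoxb. Of the tested members that lead a tumor, the GENCODE annotation places Hoxa5 at chr6:52201754-52204587, Hoxa7 at chr6:52214491-52221854 and Hoxa10 at chr6:52231197-52240854, all on the minus strand. Hoxc10 lies at chr15:102966796-102971893 and Hoxd8 at chr2:74704615-74707933, both on the plus strand. The other 27 were not tested, because too few samples held enough counts, and their highest value in any sample was 0.723 TPM. Hoxb13 and Hoxd12 had a count of 0 in all 15 samples. A difference was called at an adjusted p under 0.05 (edgeR's quasi-likelihood test, Benjamini-Hochberg adjustment over 17481 genes) with a log2 fold change of 1 or more in either direction. In the test for any difference among the 5 groups, 12 of the 39 members passed, and 52.1% of all tested genes did so. A member entered the test only where some group raised it above the filter, so the share among the tested members is not a measure of the cluster genes as a whole.

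**Figure D2:**
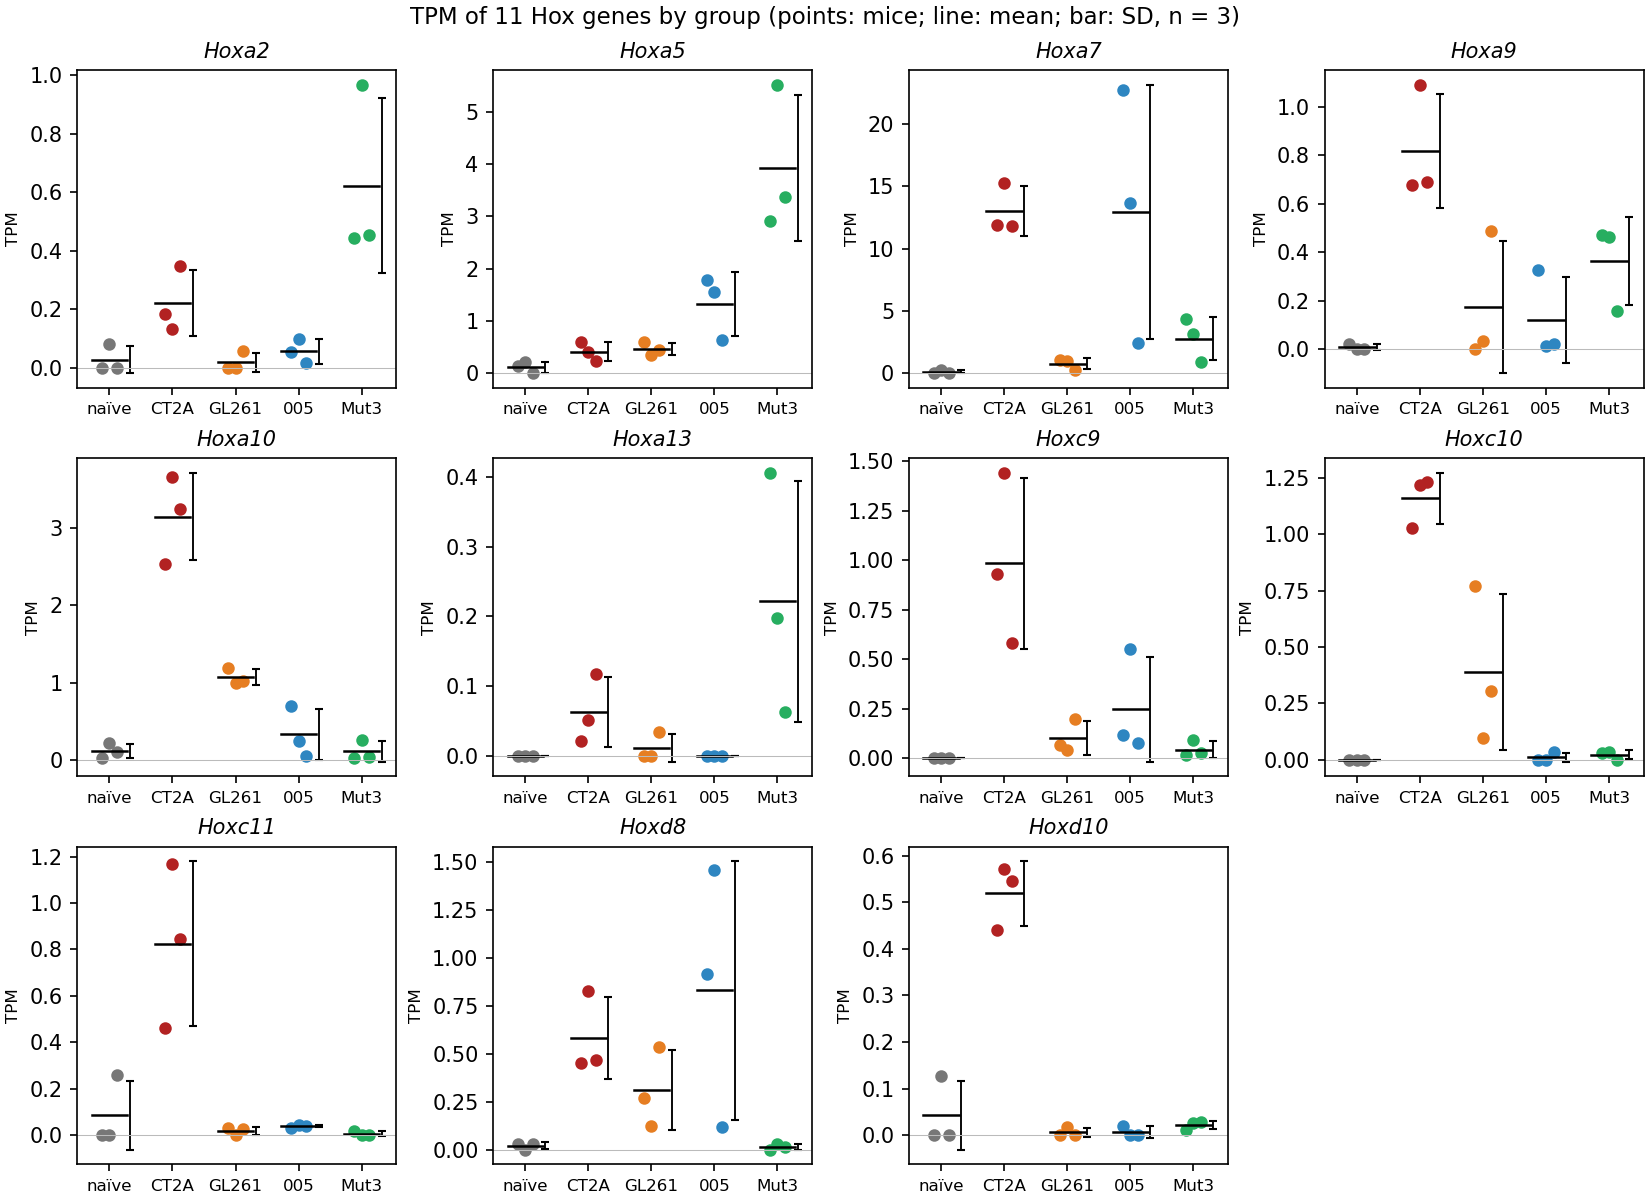
TPM of 11 of the 12 tested Hox genes in each mouse (points) by group, with the mean (line) and the SD (bar, n = 3), each panel on its own linear axis. Hoxa5 is highest in Mut3 (2.91 to 5.52 TPM), Hoxa10, Hoxc10, Hoxc11 and Hoxd10 are highest in CT2A, and the samples of 005 lie far apart for Hoxa7 and Hoxd8.

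Compared with naïve brain, CT2A had more RNA of members from paralog number 2 to 13, with the highest levels in Hoxa7 and Hoxa10. Hoxa7, which with Hoxa9 and Hoxa10 is known from MLL-rearranged leukemia as a target of MLL, was at 11.9, 15.3 and 11.8 TPM in CT2A and at 0, 0.226 and 0 TPM in naïve brain. Hoxa10, a gene of the lumbar region and the uterus, was at 2.54, 3.66 and 3.24 TPM in CT2A and at 0.0319, 0.22 and 0.11 TPM in naïve brain. No sample of CT2A overlapped naïve brain in either gene. Hoxa5, which patterns the neck, the upper thorax and the lung, was at 0.608, 0.401 and 0.239 TPM in CT2A and 0.136, 0.209 and 0 TPM in naïve brain. Hoxc10, a gene of the lumbar spinal cord and hindlimb, was at 1.03, 1.22 and 1.23 TPM in CT2A and had 0 counts in each naïve brain. Hoxc9, which sets the thoracic identity of motor neurons, was at 0.929, 1.44 and 0.58 TPM in CT2A and also had 0 counts in naïve brain. Every CT2A sample held these genes, and the groups did not overlap.

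Of the 39 members, 11 were called higher in CT2A than in naïve brain and 0 lower, where 19.0% of all tested genes were called higher and 20.2% lower. At an unadjusted p under 0.05 in edgeR, and in DESeq2, 0 were lower in any of the 4 tumors than in naïve brain. With no member above 6 counts in a naïve brain, a fall could hardly have been called in any tumor. The 0 lower in these 4 comparisons is therefore no result about the members. The log2 fold change was 5.83 (SE 1.04, adjusted p = 0.00131 in edgeR) for Hoxa10 and 3.01 (SE 0.77, adjusted p = 0.00767 in edgeR) for Hoxa5. Hoxa7 had 602 counts over the CT2A samples and 1 over the naïve brains, a ratio of 304 per library size with a 95% counting interval of 54.4 to 12000 (adjusted p = 7.82e-04 in edgeR). Against a floor of 3 counts per naïve library, Hoxc10 was at least 11.1-fold higher (adjusted p = 0.00177 in edgeR) and Hoxc9 at least 9.66-fold higher (adjusted p = 0.00177 in edgeR). The other 6 were Hoxa2, Hoxa9, Hoxa13, Hoxc11, Hoxd8 and Hoxd10, with means of 0.0631 to 0.825 TPM in CT2A. The call of Hoxa2 was lost without naïve replicate 1 (adjusted p = 0.0589 in edgeR) or CT2A replicate 3 (0.0554). That of Hoxa13 was lost without any 1 naïve brain (adjusted p from 0.0748 to 0.093 in edgeR), CT2A replicate 2 (0.0655) or CT2A replicate 3 (0.117).

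GL261 had the lowest mean of the summed Hox level among the tumors (4.42 TPM), although 005 replicate 3 lay within the GL261 values in TPM. The mean Hoxc sum of GL261 was above those of 005 and Mut3. Hoxa10 was the highest member in GL261. Hoxa10 was at 1.19, 1 and 1.02 TPM, with all 3 samples above naïve brain and below CT2A. Hoxa5 was at 0.595, 0.352 and 0.454 TPM, above naïve brain and within the reach of CT2A. The counts of Hoxc10 were uneven, 32, 4 and 15 (0.771, 0.0943 and 0.307 TPM), as were those of Hoxd8, 19, 9 and 45 (0.272, 0.125 and 0.534 TPM).

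Hoxa10, Hoxa5, Hoxc10 and Hoxd8 were among the 5 members called higher in GL261 than in naïve brain, and 0 were called lower, where 14.6% of all tested genes were called higher and 7.77% lower. Hoxa10 had a log2 fold change of 4.10 (SE 1.01, adjusted p = 0.0118 in edgeR) and Hoxa5 one of 3.06 (SE 0.77, adjusted p = 0.0131 in edgeR). Hoxc10 was at least 3.76-fold higher (adjusted p = 0.00989 in edgeR). Hoxd8 had 73 counts against 2 in naïve brain, a ratio of 23.6 with a counting interval of 6.29 to 198 (adjusted p = 0.0219 in edgeR). Without naïve replicate 1 the calls of Hoxa10 (adjusted p = 0.0533 in edgeR) and Hoxd8 (0.067) were lost and 3 members remained called. Hoxd8 was also lost without naïve replicate 2 (0.0683) or GL261 replicate 3 (0.0681). In a fit of only these 6 samples just 2 members passed the filter and both were called, whereas DESeq2 called 8 with all samples.

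In 005 the leading member was Hoxa7, and Hoxa5 and Hoxd8 followed. Hoxa7 was at 22.8, 13.7 and 2.39 TPM, Hoxa5 at 1.79, 1.55 and 0.629 TPM and Hoxd8, a gene of the trunk, at 0.915, 1.46 and 0.117 TPM. In each of these genes replicate 3 was the lowest 005 sample, but it remained above all 3 naïve brains. Hoxc9 was at 0.117, 0.552 and 0.0752 TPM, and its counts were 9, 32 and 5.

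Replicate 3 of 005 also differed from replicates 1 and 2 in its brain markers. The summed TPM of 6 neuron markers was 383 in replicate 3 against 35.2 and 11.3, and 547 to 702 in naïve brain. The summed TPM of 5 oligodendrocyte markers was 635 against 46.9 and 37.2, and that of 5 proliferation genes 35.6 against 187 and 212. Mitochondrial genes took 17.8% of its counts, against 15% to 24% in naïve brain and 3.48% to 11.3% in the other tumor samples. Without this sample, 8 members were called higher in 005 than in naïve brain in place of 5, with Hoxa4, Hoxa10 and Hoxd13 added. The part of these measures in the low Hox values of replicate 3 was not tested.

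With all samples, 5 of the 39 members were called higher in 005 than in naïve brain and 0 lower, where 11.6% of all tested genes were called higher and 1.05% lower. Hoxa5 had a log2 fold change of 4.47 (SE 0.76, adjusted p = 0.00233 in edgeR). Hoxa7 had 682 counts against 1, a ratio of 264 with a counting interval of 47.2 to 10400 (adjusted p = 0.00212 in edgeR), and Hoxd8 had 263 against 2, a ratio of 50.9 with an interval of 13.9 to 422 (adjusted p = 0.00688 in edgeR). Hoxc9 was at least 2.19-fold higher (adjusted p = 0.0247 in edgeR). The call of Hoxc9 was lost without any 1 naïve brain (adjusted p from 0.0541 to 0.0808 in edgeR) or 005 replicate 2 (0.092). Without naïve replicate 1 or 005 replicate 2, 3 members were called, and in a fit of only these 6 samples just Hoxa5 and Hoxa7 passed the filter and Hoxa7 was called (adjusted p of Hoxa5 0.0545 in edgeR).

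Hoxd13, which shapes the digits, did not pass the filter and is named here after its values were seen. It had 108, 67 and 15 counts in 005 (0.723, 0.582 and 0.118 TPM), 1 count in GL261 replicate 1 and 0 counts in the 11 other samples. Every 005 sample held it, and of the other groups only 1 GL261 sample held a single count. With no filter on low counts it was called higher in 005 than in naïve brain (adjusted p = 0.00127 in edgeR), CT2A (adjusted p = 0.00172), GL261 (adjusted p = 0.00481) and Mut3 (adjusted p = 3.02e-04). Against the floor of 3 counts per library it was at least 8.59-fold higher than in naïve brain, 17.6-fold higher than in CT2A and 19.6-fold higher than in Mut3.

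In Mut3 the Hox RNA came almost wholly from the Hoxa cluster, led in counts by Hoxa5 in each sample and in TPM by Hoxa5 in replicates 2 and 3 and by Hoxa7 in replicate 1. Hoxa5 was at 2.91, 5.52 and 3.37 TPM, above every sample of the other groups. Hoxa2, which patterns the hindbrain and the second branchial arch, was at 0.443, 0.967 and 0.454 TPM, again above every other sample. Hoxa7 was at 4.29, 3.1 and 0.836 TPM, above naïve brain in all 3 mice. Hoxa9, a regulator of blood stem cells, was at 0.471, 0.463 and 0.156 TPM. Hoxa13, a gene of the hand and the urogenital tract, had 45, 19 and 9 counts (0.406, 0.197 and 0.0629 TPM) and 0 counts in each sample of naïve brain and 005. Between Hoxa2 and Hoxa5, the levels of Hoxa3 (0.0432 to 0.135 TPM) and Hoxa4 (0.0787 to 0.25 TPM) were lower.

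Of the 39 members, 6 were called higher in Mut3 than in naïve brain and 0 lower, where 17.9% of all tested genes were called higher and 19.8% lower, 37.8% in all. For Hoxa5 the log2 fold change was 6.11 (SE 0.78, adjusted p = 1.90e-04 in edgeR). Hoxa7 had 135 counts against 1, a ratio of 60.1 with a counting interval of 10.6 to 2390 (adjusted p = 0.00502 in edgeR), and Hoxa2 had 125 against 1, a ratio of 55.6 with an interval of 9.8 to 2210 (adjusted p = 0.00314 in edgeR). Hoxa9 was at least 3.25-fold higher (adjusted p = 0.0292 in edgeR), and Hoxa13 was also called. The call of Hoxa9 was lost without any 1 naïve brain (adjusted p from 0.0638 to 0.074 in edgeR), Mut3 replicate 1 (0.0603) or Mut3 replicate 2 (0.0559). In a fit of only these 6 samples 3 members passed the filter and all 3 were called. The 4 comparisons with naïve brain share the same 3 naïve samples, which had the lowest depth, so their calls are not independent of each other.

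The levels were also summed by cluster, as a description with no test. The summed TPM of the Hoxa members was 17.9 ± 2.54 in CT2A, 15.3 ± 11.5 in 005, 8.54 ± 2.99 in Mut3 and 2.94 ± 0.479 in GL261 (SD, n = 3), against 0.39 ± 0.418 in naïve brain. In CPM, the counts scaled to library size but not to gene length, the order of 005 and Mut3 was the other way, with 41.3 ± 32.5 and 55.2 ± 18.8, and in both units the samples of these lines overlapped. The Hoxc members summed to 0.288 ± 0.17 TPM in Mut3, 0.426 ± 0.417 in 005, 0.812 ± 0.533 in GL261 and 3.58 ± 1 in CT2A, against 0.128 ± 0.148 in naïve brain. All 3 CT2A samples lay above every other sample. The Hoxd members summed to 0.121 ± 0.11 TPM in Mut3, 0.518 ± 0.324 in GL261, 1.31 ± 0.343 in CT2A and 1.57 ± 0.936 in 005, with Mut3 below CT2A, GL261 and 005 in all samples. Naïve brain was at 0.363 ± 0.204 TPM, a mean above that of Mut3, and its samples overlapped those of Mut3 and GL261. The Hoxb members had 92 counts in all 15 samples together, at most 6 for a gene in a sample, and summed to 0.0403 to 0.476 TPM with the highest sample a naïve brain.

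**Figure D3:**
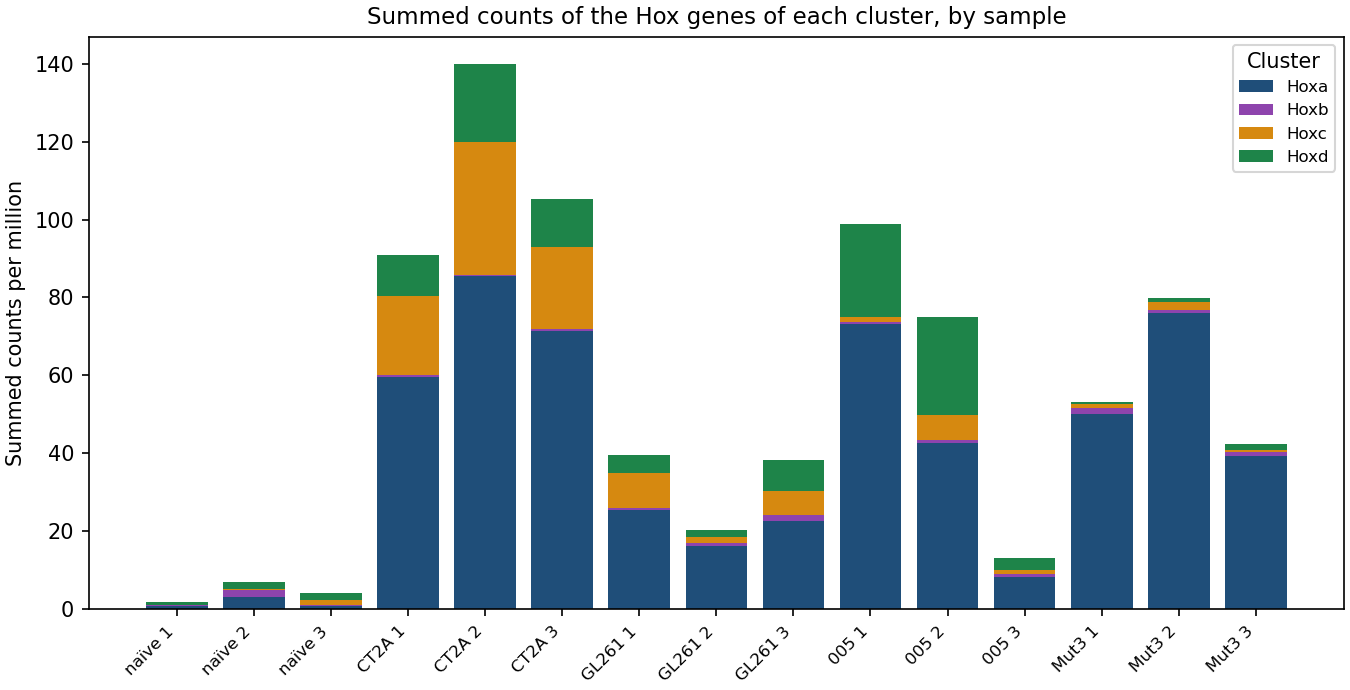
Summed CPM of the Hox genes in each sample, stacked by cluster. CT2A carries Hoxa, Hoxc and Hoxd, Mut3 is almost all Hoxa (39.4 to 76 CPM), 005 carries Hoxa and Hoxd with a low replicate 3, and Hoxb is hardly visible in any sample.

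In shares of each sample's Hox counts, Hoxa made up 92.7% to 95.2% in Mut3, 61% to 67.9% in CT2A, 59% to 79.2% in GL261 and 56.7% to 73.9% in 005. Hoxc made up 20% to 24.4% in CT2A, 6.92% to 22.6% in GL261, 1.41% to 8.44% in 005 and 1.25% to 2.66% in Mut3. Hoxd made up 11.6% to 14.3% in CT2A, 10% to 20.9% in GL261, 24.1% to 33.6% in 005 and 0.648% to 3.74% in Mut3. The shares of CT2A and GL261 overlapped in each of these 3 clusters, whereas Mut3 stood above the other tumors in Hoxa and below them in Hoxd. By paralog number, members 1 to 5 took 65% to 86.7% of the Hox counts in Mut3, 20.5% to 48% in 005, 25.4% to 29.9% in GL261 and 6.11% to 12.1% in CT2A. Members 9 to 13 took 56.9% to 64.2% in CT2A, 48.9% to 54.6% in GL261, 19.1% to 23.7% in 005 and 7.9% to 19% in Mut3. Members 6 to 8 took 55.8% and 54.4% in 005 replicates 1 and 2 and 32.9% in replicate 3, 29.4% to 31.5% in CT2A, 18.4% to 21.2% in GL261 and 5.41% to 16% in Mut3. These ranges did not overlap between CT2A and Mut3 in any of the 3 segments. The shares in naïve brain rest on 9 to 22 counts and were not compared. A single paralog number carried a large part of the Hox counts in some tumors. Number 5 reached 25.9 to 49.2 CPM in Mut3, where Hoxa5 made up 224, 368 and 332 counts, and number 10 reached 37.2 to 56.2 CPM in CT2A. All Hox genes together were at 42.5 to 79.9 CPM in Mut3 and 90.8 to 140 CPM in CT2A.

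**Figure D4:**
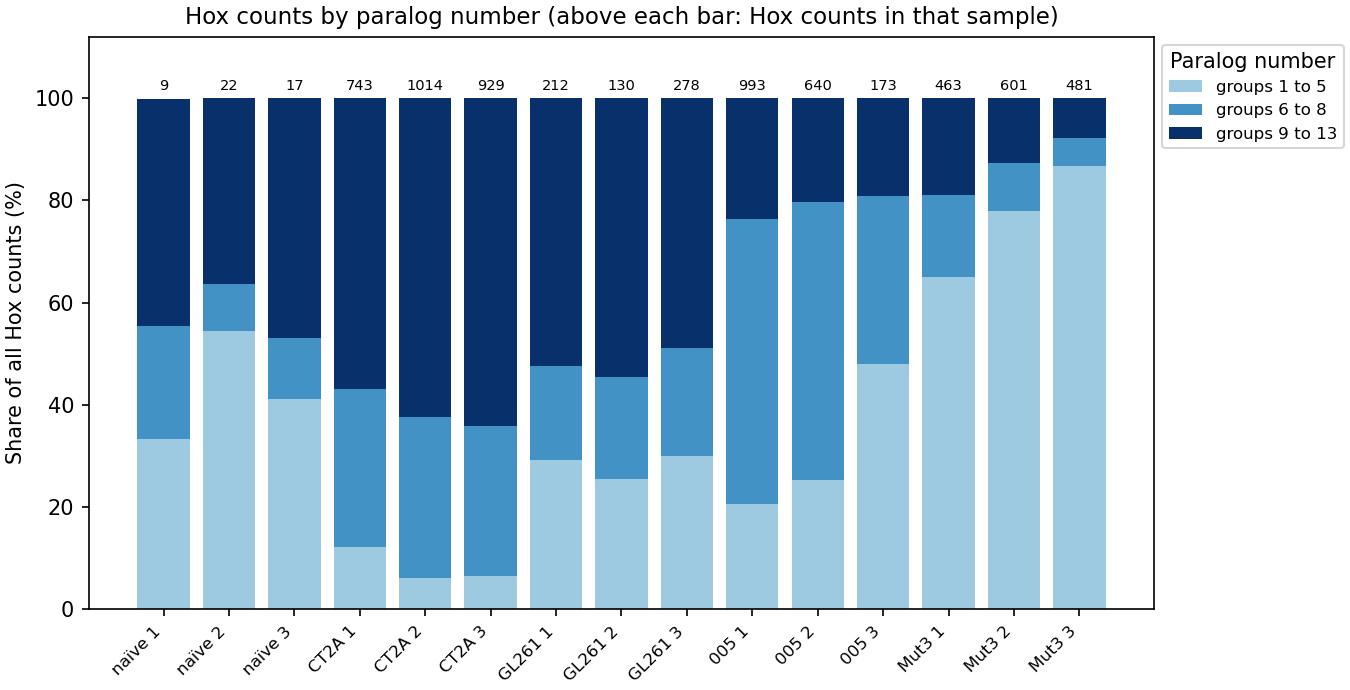
Share of each sample's Hox counts (%) from paralog numbers 1 to 5, 6 to 8 and 9 to 13, with the Hox counts of the sample above each bar. Numbers 9 to 13 hold 56.9% to 64.2% in CT2A, numbers 6 to 8 lead in 005 replicates 1 and 2, and numbers 1 to 5 hold 65% to 86.7% in Mut3; the naïve bars rest on 9, 22 and 17 counts.

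Between tumors, CT2A and Mut3 differed in the most members, 7 of the 39, where 12.8% of all tested genes were called. Higher in CT2A were Hoxa10, Hoxc9, Hoxc10, Hoxc11, Hoxd8 and Hoxd10 (6.61% of tested genes were called higher), and lower was Hoxa5 (6.15% were called lower). Hoxa10 was at 0.0299, 0.264 and 0.0468 TPM in Mut3, below each CT2A sample, and Hoxd8 had 0, 3 and 2 counts in Mut3 against 43, 77 and 52 in CT2A. Hoxa10 had a log2 fold change of 4.99 (SE 0.94, adjusted p = 0.00326 in edgeR) and Hoxd8 one of 5.35 (SE 1.09, adjusted p = 0.00503 in edgeR). For Hoxc10 it was 5.83 (SE 1.09, adjusted p = 0.00431 in edgeR) and for Hoxc9 4.70 (SE 0.99, adjusted p = 0.00843 in edgeR). Hoxa5 fell by 3.10 in CT2A relative to Mut3 on the log2 scale (SE 0.61, adjusted p = 0.00429 in edgeR). All 7 calls were kept under the alternatives and without each library of the pair.

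Hoxc11, which acts in the hindlimb and sacral region, and Hoxd10, a gene of lumbar motor neurons, separated CT2A from each other tumor. Hoxc11 had 21, 53 and 46 counts in CT2A (0.46, 1.17 and 0.846 TPM) and at most 2 counts in any other tumor sample, but 4 counts (0.258 TPM) in naïve replicate 3. Hoxd10 had 33, 41 and 47 counts in CT2A (0.44, 0.571 and 0.546 TPM) and at most 3 counts in any other sample. In both genes all 3 CT2A samples lay above the 12 others.

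In CT2A against GL261, 4 members were called higher in edgeR and 0 lower (1 lower at an unadjusted p under 0.05, and 1 in DESeq2), where 4.15% of tested genes were called higher and 3.62% lower. Hoxa7 was at 1, 0.932 and 0.2 TPM in GL261, more than 10 TPM below each CT2A sample, with a log2 fold change of 4.32 (SE 0.93, adjusted p = 0.011 in edgeR). Hoxd10 had 121 counts in CT2A against 1, a ratio of 94.8 with a counting interval of 16.7 to 3770 (adjusted p = 0.00631 in edgeR). Hoxc11 had 120 against 2, a ratio of 47 with an interval of 12.7 to 392 (adjusted p = 0.0112 in edgeR). Hoxc9 had a log2 fold change of 3.42 (SE 0.93, adjusted p = 0.0411 in edgeR), and this call was lost without any 1 of the 6 samples (adjusted p from 0.0644 to 0.15 in edgeR) and under library size scaling (0.0571). That of Hoxc11 was lost without CT2A replicate 2 (0.0534), GL261 replicate 2 (0.0534) or GL261 replicate 3 (0.0563), and that of Hoxa7 without GL261 replicate 3 (0.0532). Without CT2A replicate 2, GL261 replicate 2 or GL261 replicate 3, 2 members were called.

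In CT2A against 005, 4 members were called higher in edgeR and 0 lower (1 lower at an unadjusted p under 0.05, and 0 in DESeq2), where 2.12% of tested genes were called higher and 1.99% lower, 4.11% in all. Hoxc10 had 0, 0 and 2 counts in 005 against 58, 67 and 81 in CT2A, a ratio of 135 with a counting interval of 36.8 to 1120 (adjusted p = 0.00834 in edgeR). Hoxd10 had 2 counts in 005, a ratio of 79.1 with an interval of 21.4 to 660 (adjusted p = 0.00974 in edgeR). Hoxa10 was at 0.701, 0.244 and 0.0551 TPM in 005, with a log2 fold change of 3.41 (SE 0.85, adjusted p = 0.0389 in edgeR), and Hoxc11 had a log2 fold change of 4.74 (SE 1.06, adjusted p = 0.0249 in edgeR). The call of Hoxa10 was lost without CT2A replicate 2 (adjusted p = 0.133 in edgeR), CT2A replicate 3 (0.118) or 005 replicate 2 (0.0768), and 2 members were then called. In a fit of only these 6 samples Hoxa10 (adjusted p = 0.157 in edgeR) and Hoxd10 (0.0517) were lost. That of Hoxc11 was lost without either of those CT2A samples (0.118 and 0.0986) or any 1 of the 005 samples (from 0.0537 to 0.0575). Hoxa7 did not pass the test between these lines, with 11.8 to 15.3 TPM in CT2A and 2.39 to 22.8 TPM in 005.

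GL261 and 005 differed in 2 members, where 2.62% of tested genes were called. Hoxc10 was higher in GL261, with 51 counts against 2, a ratio of 42.6 with a counting interval of 11.2 to 361 (adjusted p = 0.029 in edgeR; 1.73% of tested genes were called higher). Hoxa7 was lower in GL261, with 24 counts against 682 (log2 fold change −4.14, SE 0.92, adjusted p = 0.0269 in edgeR; 0.887% were called lower). Neither call was firm. Hoxc10 was lost without GL261 replicate 1 (adjusted p = 0.115 in edgeR), GL261 replicate 3 (0.0595), 005 replicate 1 (0.117) or 005 replicate 2 (0.0843). Hoxa7 was lost without any 1 of the GL261 samples (from 0.0854 to 0.119) or 005 replicate 1 (0.109), and in a fit of only these 6 samples (0.17). The number called was 0 without GL261 replicate 1, GL261 replicate 3 or 005 replicate 1, 1 without GL261 replicate 2 or 005 replicate 2, and 4 without 005 replicate 3, when Hoxa5 and Hoxd13 were added.

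GL261 and Mut3 differed in 6 members, where 17.2% of tested genes were called. Hoxa10, Hoxc10 and Hoxd8 were higher in GL261 (11.1% of tested genes were called higher) and Hoxa2, Hoxa5 and Hoxa13 were lower (6.10% were called lower). Hoxa5 in GL261 fell by 3.05 relative to Mut3 on the log2 scale (SE 0.61, adjusted p = 0.00509 in edgeR). Hoxa2 had 125 counts in Mut3 against 3 in GL261, a ratio of 28.7 with a counting interval of 9.6 to 141 (adjusted p = 0.00876 in edgeR). For Hoxa10 the log2 fold change was 3.26 (SE 0.89, adjusted p = 0.0225 in edgeR), for Hoxc10 4.19 (SE 1.07, adjusted p = 0.0198 in edgeR) and for Hoxd8 4.22 (SE 1.07, adjusted p = 0.0167 in edgeR). Without Mut3 replicate 1 or Mut3 replicate 3, only Hoxa2 and Hoxa5 were called. The adjusted p in edgeR was then 0.0808 and 0.0739 for Hoxa10, 0.0537 in both for Hoxc10, 0.0614 and 0.0522 for Hoxd8 and 0.176 and 0.0604 for Hoxa13. Hoxc10 was also lost without GL261 replicate 1 (0.0645), Hoxd8 without GL261 replicate 3 (0.0555), and Hoxa13 without any 1 of the other samples (from 0.0541 to 0.14) and under library size scaling (0.0535).

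Mut3 and 005 differed in 3 members, where 19.8% of tested genes were called. Hoxd8 was higher in 005 (112, 139 and 12 counts against 0, 3 and 2), with a log2 fold change of 5.63 (SE 1.09, adjusted p = 0.00401 in edgeR; 14.0% of tested genes were called higher in 005). Hoxa2 and Hoxa13 were lower in 005, where 5.76% of tested genes were called lower. Hoxa2 had 4, 6 and 1 counts in 005 and fell by 3.53 on the log2 scale (SE 0.94, adjusted p = 0.0181 in edgeR), a call that was lost without Mut3 replicate 2 (0.066). Hoxa13 had 73 counts in Mut3 and 0 in 005, at least 9.64-fold higher in Mut3 (adjusted p = 0.0108 in edgeR). Without 005 replicate 3, 6 members were called, with Hoxa7, Hoxc9 and Hoxd13 added, and DESeq2 called 5 with Hoxa5 and Hoxa7 added.

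Neighbouring groups in the order of levels often overlapped. For Hoxa5 the order was Mut3, 005, GL261, CT2A and naïve brain, with means of 3.93, 1.32, 0.467, 0.416 and 0.115 TPM, and only GL261 and CT2A overlapped. For Hoxa10 the order was CT2A, GL261, 005, naïve brain and Mut3, with means of 3.14, 1.07, 0.333, 0.121 and 0.114 TPM, and the last 3 overlapped.

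Hoxa7 had a high TPM for its number of counts. It carried 0.221 of the counts per TPM of the median gene, so few counts gave a high TPM: in CT2A replicate 1, 177 counts stood for 11.9 TPM, whereas 213 counts of Hoxa10 stood for 2.54 TPM. Leaving out Hoxa7, the summed Hox level was 9.8 ± 1.96 TPM in CT2A, 6.39 ± 2.06 in Mut3, 4.42 ± 2.23 in 005, 3.71 ± 1.26 in GL261 and 0.992 ± 0.669 in naïve brain (SD, n = 3). The mean of Mut3 was then above that of 005, with overlapping samples. CT2A no longer lay above all Mut3 samples (8.28 TPM in CT2A replicate 1 and 8.75 TPM in Mut3 replicate 2). The highest 005 sample, at 5.79 TPM, was then below every CT2A sample. In Hoxa7, 20.4% of exonic bases also lie in exons of the antisense RNA Hoxaas3. The sources do not say whether reads were counted by strand, so reads on the shared stretch cannot be told apart.

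The 27 members that were not tested were mostly at a handful of counts. Of these, 7 had at least 3 counts in each of the 3 mice of some group, and 9 never reached 3 counts in any sample. Hoxc6, named after its values were seen, had 5, 11 and 5 counts in CT2A, 9, 3 and 1 in GL261 and 2, 7 and 1 in Mut3, and 0 in each sample of naïve brain and 005. With no filter it was called higher in CT2A than in naïve brain (adjusted p = 0.0382 in edgeR) and 005 (adjusted p = 0.0467 in edgeR). Hoxd3 and Hoxd4 share 62.3% and 52.3% of their exonic bases with other genes on the same strand, each other among them, so counts could be split between them, and neither exceeded 8 counts in a sample.

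The noncoding RNAs of the clusters were also compared. Of 18 listed, 17 were in the files and 6 were tested, and the rest of those in the files did not pass the filter. Of the 6, 5 were called higher in CT2A than in naïve brain, 1 in GL261, 2 in 005 and 4 in Mut3, with 0 called lower (also 0 at an unadjusted p under 0.05 in edgeR, and 0 in DESeq2). None of the 6 had more than 10 counts in a naïve brain, so a fall could hardly have been called. Over all tested genes 19.0%, 14.6%, 11.6% and 17.9% were called higher, so the count in GL261 was near the background, and the tested RNAs had entered through the groups in which they were high. Halr1, a long noncoding RNA of the Hoxa region, was at 42, 98.3 and 372 TPM in Mut3, 19.7, 23.5 and 33.9 TPM in CT2A and 51, 37.7 and 11.8 TPM in 005. In GL261 it was at 0.22, 0.643 and 1.08 TPM, against 2.76, 2.73 and 0.889 TPM in naïve brain, and GL261 replicate 3 overlapped naïve brain. Its log2 fold change between Mut3 and naïve brain was 7.15 (SE 0.99, adjusted p = 2.97e-04 in edgeR), and Mut3 replicate 3 alone held 3650 of its counts. Between CT2A and GL261 it was 5.47 (SE 0.96, adjusted p = 0.00357 in edgeR).

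Hotairm1, transcribed from the Hoxa cluster in the direction opposite to its coding genes, was at 56.5, 66.4 and 36.9 TPM in Mut3 and at most 14.8 TPM in any other sample. It had 2, 0 and 0 counts in naïve brain and was called higher in Mut3 (adjusted p = 9.84e-04 in edgeR). In GL261 it fell by 2.73 relative to Mut3 on the log2 scale (SE 0.82, adjusted p = 0.0342 in edgeR) and in 005 by 2.72 (SE 0.81, adjusted p = 0.0288 in edgeR). Hoxaas3 was at 3.75, 6.46 and 2.61 TPM in Mut3, with a log2 fold change of 3.55 against naïve brain (SE 0.79, adjusted p = 0.00311 in edgeR). Its values overlapped CT2A, at 2.79, 1.79 and 1.01 TPM. Hoxd3os1 was at 4.51, 5.91 and 4.06 TPM in CT2A, above every other sample, with 1, 0 and 1 counts in naïve brain (adjusted p = 0.012 in edgeR).

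Hotair, which is transcribed from the Hoxc cluster beside Hoxc11, and Hoxaas2 are named after their values were seen. Hotair had 37, 36 and 46 counts in CT2A (0.336, 0.342 and 0.36 TPM), at most 4 in any other sample and 0 in each Mut3 sample. It was called higher in CT2A than in naïve brain (adjusted p = 0.00538 in edgeR), GL261 (0.0262), 005 (0.0162) and Mut3 (0.00297). Hoxaas2 had 90, 130 and 126 counts in Mut3 and at most 46 in any other sample. Its log2 fold change between Mut3 and naïve brain was 5.20 (SE 0.88, adjusted p = 7.64e-04 in edgeR).

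**Figure D5:**
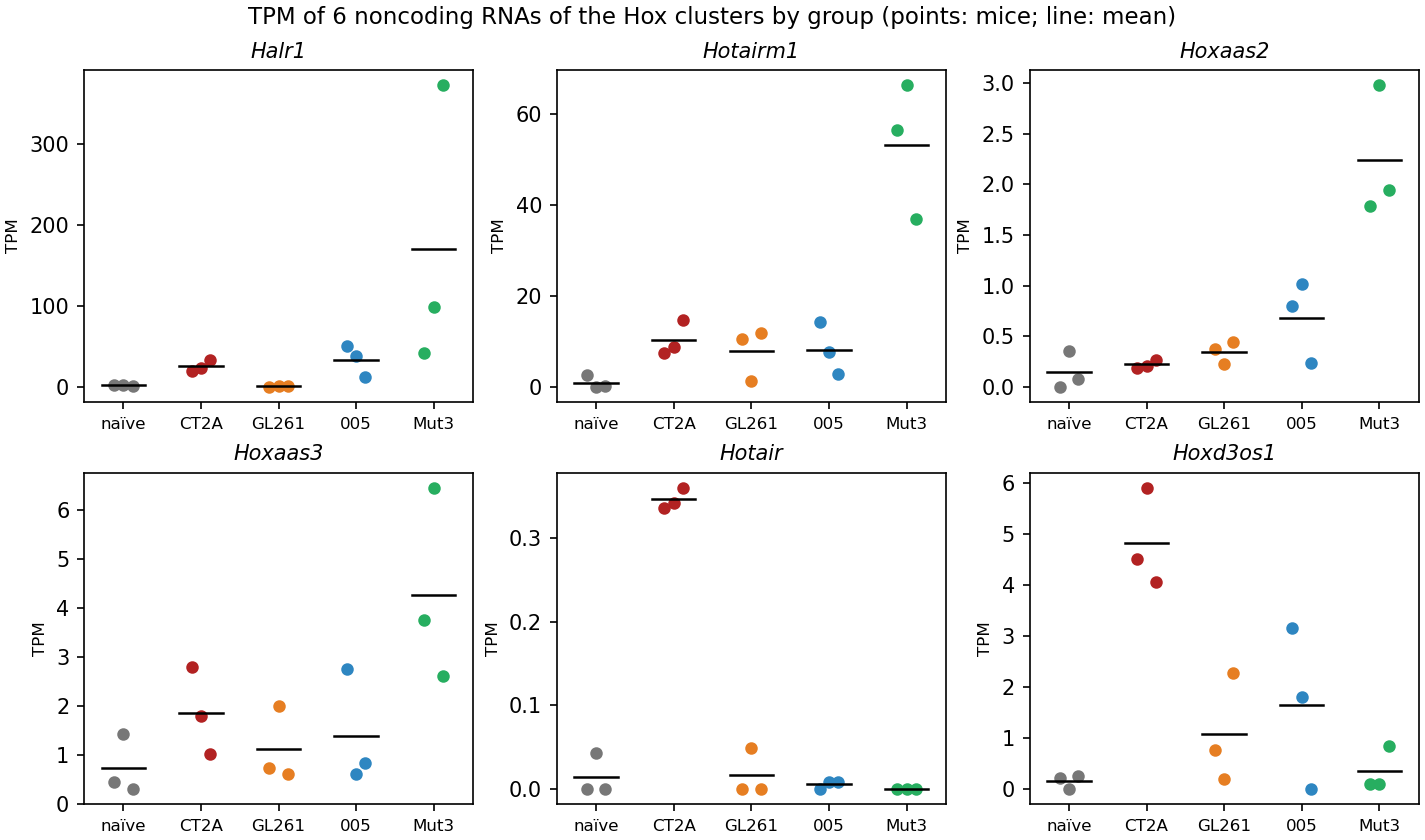
TPM of 6 noncoding RNAs of the Hox clusters in each mouse (points) by group, with the mean as a line, each panel on its own linear axis. Halr1, Hotairm1, Hoxaas2 and Hoxaas3 of the Hoxa cluster have their highest means in Mut3, and Hotair (0.336 to 0.36 TPM) and Hoxd3os1 (4.06 to 5.91 TPM) stand highest in CT2A.

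Among the 9 partners of Hox proteins of the Pbx, Meis and Pknox families, 1 was called higher and 4 lower in CT2A than in naïve brain (median log2 fold change −1.16 against −0.04 over all tested genes). In GL261 0 were higher and 2 lower (−0.44 against −0.08), in 005 0 and 0 (−0.48 against 0.01), and in Mut3 0 and 1 (−0.03 against 0.11). At an unadjusted p under 0.05 in edgeR, 0 were higher in GL261, 005 and Mut3, and 1 was lower in 005, where DESeq2 also called 1. Over all tested genes 19.0% were called higher and 20.2% lower in CT2A, 14.6% and 7.77% in GL261, 11.6% and 1.05% in 005, and 17.9% and 19.8% in Mut3. The gene called higher in CT2A was Pknox1, at 0.262, 4.04 and 0.347 TPM in CT2A and 0.662, 0.546 and 0.254 TPM in naïve brain, so that this call rested on CT2A replicate 2 alone. Meis2 was at 6.29, 17.8 and 9.53 TPM in naïve brain and 1.32, 0.697 and 0.902 TPM in CT2A, with a log2 fold change of −2.50 (SE 0.54, adjusted p = 0.0036 in edgeR). Its values did not overlap. Neurons also express Meis2, and the 6 neuron markers summed to 9.48 to 66.7 TPM in CT2A against 547 to 702 in naïve brain. The part of neurons in this fall was not tested.

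Of 16 Polycomb genes, 5 were called higher and 4 lower in CT2A than in naïve brain, 2 and 2 in GL261, 3 and 1 in 005, and 6 and 3 in Mut3. Their median log2 fold changes were 0.12, −0.04, 0.12 and 0.45, against −0.04, −0.08, 0.01 and 0.11 over all tested genes, of which 39.2%, 22.4%, 12.7% and 37.8% were called in either direction. Ezh2, the methyltransferase of Polycomb repressive complex 2, was at 61.6 ± 28.4 TPM in Mut3, 50.3 ± 7.85 in GL261, 46.5 ± 4.69 in CT2A, 32.7 ± 16.6 in 005 and 5.98 ± 3.45 in naïve brain (SD, n = 3). Against naïve brain the log2 fold change was 4.28 in Mut3 (adjusted p = 2.90e-04 in edgeR), 4.05 in CT2A (4.07e-04), 3.97 in GL261 (5.53e-04) and 3.30 in 005 (0.00241). Proliferating cells are known to express Ezh2, and the 5 proliferation genes summed to 7.83 to 16.3 TPM in naïve brain and 35.6 to 284 TPM in the tumors. Their part in the rise was not tested.

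Of 12 genes of the MLL and trithorax group, 2 were called higher and 1 lower in CT2A than in naïve brain, 1 and 3 in GL261, 1 and 0 in 005, and 2 and 2 in Mut3. Their median log2 fold changes were −0.44, −0.37, 0.07 and 0.23, and over all tested genes 39.2%, 22.4%, 12.7% and 37.8% were called in either direction, so the counts set nothing apart in this group. Ash2l, a core subunit of these methyltransferases, was at 12.3, 12.3 and 12.6 TPM in GL261 and 10.1, 6.88 and 7.7 TPM in Mut3. In naïve brain it was at 2.35, 3.14 and 1.66 TPM, and its log2 fold change was 3.23 in GL261 (SE 0.35, adjusted p = 7.90e-05 in edgeR) and 2.64 in Mut3 (SE 0.34, adjusted p = 1.93e-04 in edgeR).

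Of 15 Cdx and retinoic acid genes 10 were tested, and 1 was called higher and 3 lower in CT2A than in naïve brain, 0 and 1 in GL261, 0 and 0 in 005 (1 and 1 at an unadjusted p under 0.05 in edgeR, 1 and 0 in DESeq2), and 1 and 4 in Mut3. Their median log2 fold changes were −0.87, 0.25, −0.47 and −1.04, and over all tested genes 39.2%, 22.4%, 12.7% and 37.8% were called in either direction. Aldh1a1, which makes retinoic acid, was at 12.1, 31 and 28.4 TPM in Mut3 and 5.34, 7.51 and 7.05 TPM in naïve brain, with a log2 fold change of 2.64 (SE 0.72, adjusted p = 0.00977 in edgeR). It was also called higher in Mut3 than in CT2A, GL261 and 005 (adjusted p = 0.0104, 0.0372 and 0.0146 in edgeR). Crabp2, which carries retinoic acid to its receptors, was at 1.58, 0.733 and 0.703 TPM in CT2A and 9.37, 10 and 8.04 TPM in GL261 (log2 fold change −3.09, SE 0.75, adjusted p = 0.0213 in edgeR).

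Of 9 genes that flank the clusters 6 were tested, and 1 was called higher in each tumor than in naïve brain and 1 lower in Mut3. Over all tested genes 19.0%, 14.6%, 11.6% and 17.9% were called higher in CT2A, GL261, 005 and Mut3 and 19.8% lower in Mut3, so 1 of 6 is near the background. The gene that rose was Skap2, the neighbour of the Hoxa cluster and an adaptor protein of leukocytes. It was at 9.2, 11 and 9.91 TPM in naïve brain, 33.4, 31.9 and 35.7 TPM in CT2A, 42.5, 33.7 and 32.8 TPM in GL261 and 44.6, 54.3 and 22.9 TPM in 005. In Mut3 it was at 115, 112 and 75.4 TPM, above every other sample, with a log2 fold change of 4.13 against naïve brain (SE 0.45, adjusted p = 8.51e-05 in edgeR). The 5 leukocyte markers summed to 5.04 to 6.92 TPM in Mut3 and 16.6 to 84.1 TPM in the other tumors. Their sum in naïve brain was 13.6 to 19.3 TPM, but only Coro1a was called lower in Mut3, and the median log2 fold change of the 5 was −0.05. Skap1, the neighbour of the Hoxb cluster and an adaptor of T cells, fell in Mut3, from 0.375, 2.09 and 0.769 TPM in naïve brain to 0, 0.0447 and 0.0866 TPM (log2 fold change −3.45, SE 0.89, adjusted p = 0.0073 in edgeR).

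The labels were checked against cell markers. Naïve brain was rich in the neuron markers (547 to 702 TPM summed) and the oligodendrocyte markers (185 to 893 TPM). The 6 markers of hindbrain and brainstem neurons, the part of the adult brain in which Hox genes are known to stay on, summed to 0.582 to 1.11 TPM in naïve brain and 0.109 to 0.628 TPM in the tumors. Slc6a2 took 0.557 of the 0.582 TPM in naïve replicate 1 and 0.934 of the 1.11 TPM in naïve replicate 3. Only 2 of the 6 were tested, and against naïve brain 1 was called lower in CT2A, and 1 higher and 1 lower in Mut3. The sum is therefore no measure of the amount of hindbrain tissue. Macrophage and microglia markers summed to 568 to 2777 TPM in 005, 406 to 669 in GL261, 224 to 295 in CT2A, 68.3 to 252 in Mut3 and 135 to 175 in naïve brain. Lyz2 took 2232 of the 2777 TPM in 005 replicate 2 and 175 of the 252 TPM in Mut3 replicate 3. Of the 8 markers, 5 were called higher than in naïve brain in CT2A, GL261 and 005 each, and 1 lower in CT2A. In Mut3, 4 were called lower and 0 higher (1 higher at an unadjusted p under 0.05 in edgeR, and 1 in DESeq2). Over all tested genes 19.0%, 14.6%, 11.6% and 17.9% were called higher in CT2A, GL261, 005 and Mut3, and 19.8% lower in Mut3. Markers of fibroblasts and meninges, which can hold Hox RNA, summed to 21.7 to 25.3 TPM in CT2A, above all other samples (2.48 to 17.2 TPM). That rank rested on Col3a1, at 14.9, 19.1 and 18.6 TPM in CT2A and 0.359 to 0.533 TPM in naïve brain. The mean TPM of Pdgfra was also higher in CT2A than in naïve brain, and those of Col1a1, Col1a2, Dcn and Lum were lower. The test used counts scaled to the library and not TPM, so these directions in TPM need not be those of its log2 fold changes. Of the 6 markers, 2 were called higher in CT2A than in naïve brain and 0 lower. Over all tested genes 19.0% were called higher and 20.2% lower. The median log2 fold change of the 6 was 0.81, against −0.04 over all tested genes. The part of fibroblast and meningeal cells in the CT2A values was not tested. Total counts were 3105119 to 5161132 in naïve brain, 7246421 to 8825088 in CT2A, 5380395 to 7244155 in GL261, 8523676 to 13130158 in 005 and 7525006 to 11308105 in Mut3. The labels give separate samples but do not describe cultures or litters, and intervals and floors cover counting error only.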

How the data were processed

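RNA from tumors and naïve brain was sequenced from 50 ng per sample. The authors aligned reads with STAR 2.4.2a to the GENCODE mouse genome and ran Picard and RNA-SeQC for quality. Deposited were estimated counts, which need not be whole numbers, and TPM values, both from the authors, and the submitters' processing notes name Salmon without its role. Since count and TPM differ only by a factor per gene and per sample, the tables are not independent.

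Of 46679 identifiers, 46201 matched GENCODE M21, which gave names and positions. Rounded estimated counts entered edgeR 4.0.16 in R 4.3.3 (TMM, filterByExpr, quasi-likelihood test, all 15 samples, group means), with Benjamini-Hochberg adjustment over 17481 genes. The steps were tested on simulated data. The members, lists and tests were chosen with earlier results of these data known. Members called in a pairwise comparison or at 1 TPM in a group mean were described, fold changes were given for at most 5 per comparison, and at most 4 called genes per list were named, by mean TPM. Alternatives were DESeq2 1.42.0, library size scaling, other filters, only the samples compared, no fold threshold, a replicate block and leaving out each sample. Promoters came from RefSeq (GRCm38.p6). Protein sequences were not used here. Values of some genes, 1 Hox gene among them, are counted in totals but not reported here.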

Additional observations from a re-analysis of the deposited data

Results flagged for a closer look

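Between tumor lines, some Hox genes passed the test of the difference itself, in edgeR with all samples in 1 fit. The number called was 4 of 39 for CT2A against GL261, where 7.77% of all tested genes were called, 4 for CT2A against 005 (4.11%) and 7 for CT2A against Mut3 (12.8%). It was 2 for GL261 against 005 (2.62%), 6 for GL261 against Mut3 (17.2%) and 3 for 005 against Mut3 (19.8%). Of the 39 members 27 were not tested and could not be called, and the 12 tested had passed the filter through the groups in which they were high, so these shares of tested genes are a background and not a like comparison. The count for GL261 against 005 fell to 0 without GL261 replicate 1, GL261 replicate 3 or 005 replicate 1.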

How the results depend on the processing

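Of 53 calls of a Hox gene in a pair of groups, 32 held in every alternative fit that tested the gene, 21 were lost in at least 1 of them (12 only when a sample was left out) and 0 changed direction. The cause of each change was not tested. DESeq2 called 8 genes for GL261 against naïve brain and 5 for 005 against Mut3. With no filter on low counts, 7 were called for CT2A against 005 and 6 for 005 against Mut3. A fit of only the samples compared called 2 for GL261, 1 for 005 and 3 for Mut3 against naïve brain, 2 for CT2A against 005 and 0 for GL261 against 005 in edgeR, where 1 had an unadjusted p under 0.05; DESeq2, run on all samples, called 2. In that fit the filter kept 2 Hox genes for GL261, 2 for 005 and 3 for Mut3 against naïve brain.

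Leaving out 1 sample gave 9 to 12 called genes for CT2A, 3 to 6 for GL261, 3 to 8 for 005 and 5 to 6 for Mut3 against naïve brain. It gave 2 to 4 for CT2A against GL261, 2 to 5 for CT2A against 005, 7 to 8 for CT2A against Mut3, 0 to 4 for GL261 against 005, 2 to 5 for GL261 against Mut3 and 3 to 6 for 005 against Mut3. The test for any difference gave 12 to 14.

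The replicate numbers do not pair the samples: of 30 pairs with the same number, 1 had a correlation of deviations above 0.1 (range −0.331 to 0.262), and 2 of 15 samples correlated best with their own number. With the replicate number as a block, 2 genes were called for CT2A against 005 and 1 for GL261 against 005, and 10 for CT2A against naïve brain. The calls lost with this block were Hoxa10 (adjusted p = 0.0628 in edgeR) and Hoxc11 (0.0579) for CT2A against 005, Hoxc10 for GL261 against 005 (0.0771), Hoxc9 for CT2A against GL261 (0.0639), and Hoxa13 for CT2A against naïve brain (0.0751) and GL261 against Mut3 (0.0805).

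Scaling by library size in place of TMM moved the median log2 fold change of all genes by more than 0.1 for CT2A: from −0.04 to −0.24 against naïve brain, from −0.13 to −0.25 against GL261, from −0.23 to −0.35 against 005 and from 0.02 to −0.13 against Mut3. Summed CPM in place of TPM kept CT2A highest for Hoxa and Hoxc, and reordered 005 and Mut3 for Hoxa. Depth limits naïve brain most, where 3 counts are the least that can be read.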
